A study of Arabidopsis thaliana with 18 samples.

Results

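Salicylic acid (salicylate) is the plant hormone of defence against pathogens that feed on living cells, and 8 genes of its pathway were followed here among the 27416 genes counted. They were taken by locus identifier, with earlier results of these data known: EDS1 (AT3G48090), PAD4 (AT3G52430), ICS1 (AT1G74710), NPR1 (AT1G64280), WRKY70 (AT3G56400), PR1 (AT2G14610), PR2 (AT3G57260) and PR5 (AT1G75040). All 8 had a row in every library and all 8 passed the filter on low counts, which kept 20615 genes for testing. Among the tests run, PAD4 rose with tunicamycin in the libraries labelled ire1a1b by more than in WT, EDS1 rose in all 3 genotypes, and ICS1 fell in the libraries labelled ire1b. WRKY70 rose in the libraries labelled ire1a1b. No change of PR1, PR2 or PR5 passed the test, and PR1 varied more between replicates than any other gene tested.

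The study asked how stress in the endoplasmic reticulum (ER) and autophagy are linked in Arabidopsis thaliana. Seedlings 7 days old, grown upright on plates, were picked for like size and kept for 6 h in liquid medium with sucrose, holding either DMSO, the solvent, or 5 µg/mL tunicamycin (TM). TM blocks N-glycosylation, so that misfolded proteins build up in the ER. The 6 groups of 3 libraries were WT, ire1b and ire1a ire1b (ire1a1b below), each with DMSO and with TM. IRE1A and IRE1B encode the ER stress sensors that splice the mRNA of the transcription factor bZIP60. All groups held polyA RNA of whole seedlings, and the labels gave neither the mutant alleles nor the number of seedlings in a library. Since shoots and roots were ground together, fewer cells of a type and less RNA per cell cannot be told apart in any value below.

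Salicylate is made in the chloroplast, mainly by isochorismate synthase (ICS1), when the lipase-like proteins EDS1 and PAD4 pass on signals from intracellular immune receptors. Salicylate binds NPR1, which works with TGA transcription factors in the nucleus to switch on the pathogenesis-related (PR) genes, whose products are secreted through the ER. WRKY70 is a transcription factor of this pathway and is known to favour salicylate over jasmonate responses.

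Gene counts came to 16.35 to 24.85 M per library, so that 3 counts, taken as the floor, stood for 0.121 to 0.184 CPM, the count relative to a library total scaled by TMM. On the second principal component, with 20.7% of the variance, replicate 1 of WT and of ire1a1b lay away from the rest, with DMSO and with TM. IRE1A averaged 88.4 CPM in WT and 22 CPM in ire1a1b with DMSO, and IRE1B was not lower in either mutant label (31.8 CPM in WT, 40.9 in ire1b and 37.2 in ire1a1b), so the mutant groups are named by their labels. BIP3, an ER chaperone gene, averaged 2885, 2810 and 102 CPM with TM in WT, ire1b and ire1a1b. Green shoot and root markers were both present in all groups, as whole seedlings would give: the summed level of 7 green markers ran from 10334 to 16729 CPM and that of 8 root markers from 30.2 to 94.9 CPM. No marker averaged 0 in any group.

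The 250 bases before the gene start are printed for 3 of the genes, to show the upstream DNA of those whose transcripts rose in ire1a1b (WRKY70, PAD4 and EDS1). They come from the RefSeq TAIR10.1 assembly, the nuclear chromosomes of which belong to the TAIR10 build named by the submitters' processing notes. Each runs 5′ to 3′ along the gene's own strand, and capitals mark the core of the W-box, the element that WRKY factors bind (TTGAC, on either strand).
WRKY70 (chr3:20910624-20910873, minus strand): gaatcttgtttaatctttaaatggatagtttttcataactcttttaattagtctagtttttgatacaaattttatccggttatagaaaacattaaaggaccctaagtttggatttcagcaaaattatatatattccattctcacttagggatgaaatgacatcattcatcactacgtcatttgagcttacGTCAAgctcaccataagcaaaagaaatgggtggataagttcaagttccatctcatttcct
PAD4 (chr3:19430845-19431094, plus strand): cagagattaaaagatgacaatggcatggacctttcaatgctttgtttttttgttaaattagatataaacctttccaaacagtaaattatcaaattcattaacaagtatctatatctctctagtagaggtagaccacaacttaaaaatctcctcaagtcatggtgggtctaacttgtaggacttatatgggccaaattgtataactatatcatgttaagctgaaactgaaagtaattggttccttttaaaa
EDS1 (chr3:17758148-17758397, minus strand): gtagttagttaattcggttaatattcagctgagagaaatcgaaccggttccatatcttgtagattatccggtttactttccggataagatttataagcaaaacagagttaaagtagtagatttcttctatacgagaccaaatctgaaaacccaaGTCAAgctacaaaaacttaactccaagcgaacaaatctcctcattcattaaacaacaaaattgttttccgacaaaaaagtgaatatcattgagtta

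The W-box core stood in the 250 bases of 3 of the 7 genes searched, at -60 in WRKY70, -96 in EDS1 and -165 in PR5, counted from the gene start to the match's first base. Of 26709 promoters of the same length 45% held it. The core bound by TGA factors (TGACG, both strands) was found in WRKY70 alone of the 7, at -76 and at -61. That motif was in 18.6% of all promoters. The match at -61 overlapped the W-box core, and together they read TTGACG on the strand opposite to the one printed. Only the W-box core was searched, not the bases beside it, so a match does not show a full W-box. The element of ER protein genes known as TL1 (GAAGAAGAA, both strands, 4.11% of promoters) and the ER stress response element (ERSE, both strands, 0.7%) had no match in the 7 windows.

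Set per kb of exon, so that genes can be compared, the level averaged over the 18 libraries was 19.5 CPM per kb for both NPR1 and EDS1. PAD4 stood at 10.7, ICS1 at 8.39 and WRKY70 at 4.4 CPM per kb. The PR genes were lowest, with PR5 at 3.08, PR1 at 2.12 and PR2 at 1.55 CPM per kb.

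**Figure D1:**
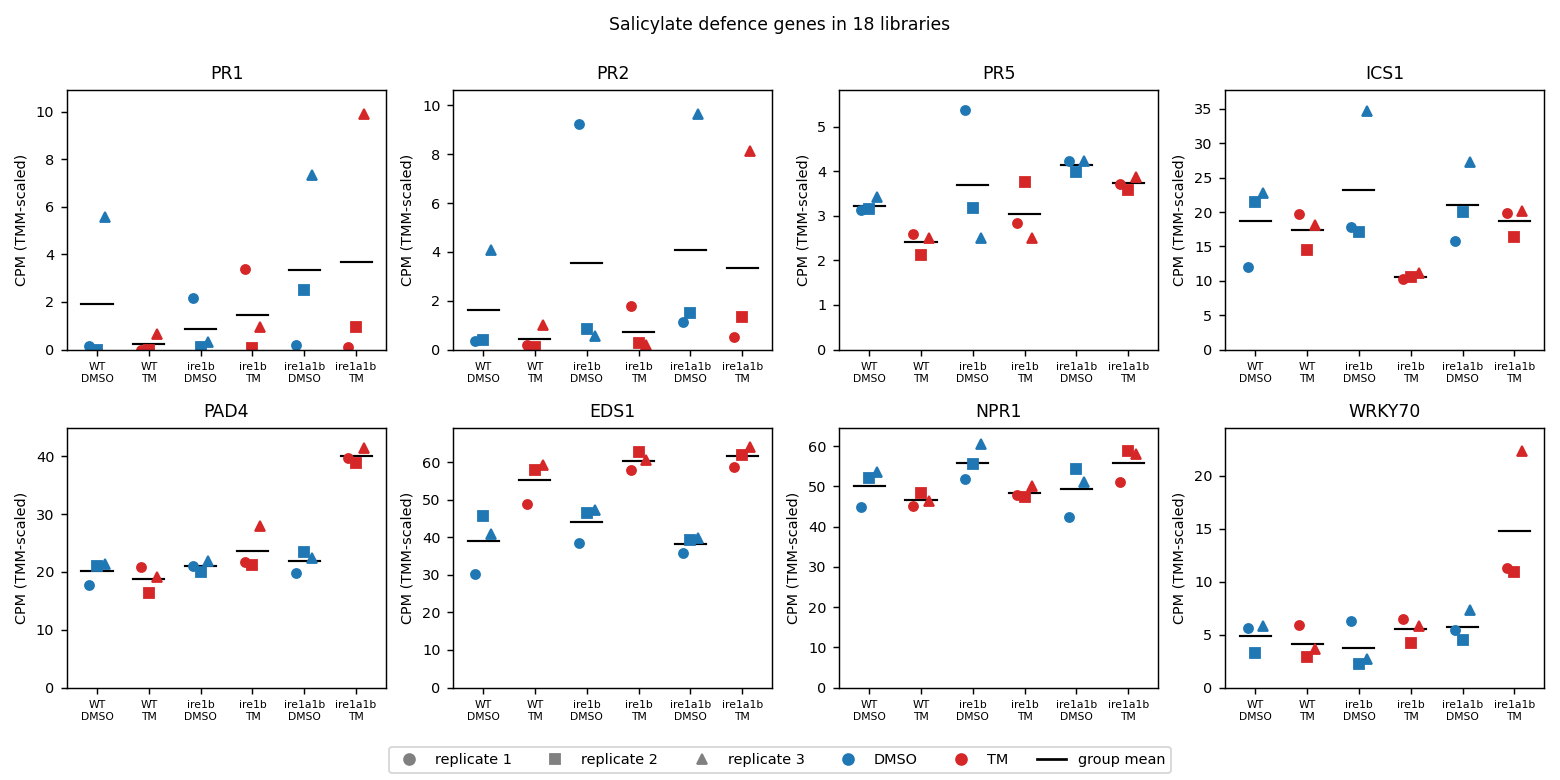
Level (CPM, TMM-scaled, axes from 0) of each of the 8 genes in the 18 libraries, by group, with circles, squares and triangles for replicates 1, 2 and 3, blue for DMSO, red for TM and a bar at each group mean. PAD4 in ire1a1b with TM (38.8 to 41.5 CPM) lies above every other library, EDS1 is higher with TM in each genotype, and PR1 and PR2 are uneven between the replicates of a group.

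EDS1 (chromosome 3, 17755329 to 17758147, minus strand), the lipase-like hub of the pathway, was called higher with TM in each of the 3 genotypes. Its levels in WT were 30.3, 45.8 and 40.9 CPM with DMSO and 48.8, 58 and 59.3 CPM with TM. In ire1b they were 38.6, 46.5 and 47.3 CPM, and 58, 62.8 and 60.5 CPM with TM. In ire1a1b they were 35.7, 39.3 and 39.7 CPM, and 58.6, 62 and 64.1 CPM with TM. Every TM library was above every DMSO library, also across genotypes. In WT the rise of EDS1 was 1.42-fold (0.51 ± 0.12 on the log2 scale, ± standard error, with 3 libraries in each group and an adjusted p of 0.013 by the quasi-likelihood test of edgeR with Benjamini-Hochberg adjustment, as for every adjusted p below unless another tool is named). The rise was 1.37-fold in ire1b (log2 0.45 ± 0.12, adjusted p = 0.014) and 1.61-fold in ire1a1b (log2 0.69 ± 0.12, adjusted p = 0.0011). The call in WT was lost without the second or the third TM library (adjusted p = 0.056 and 0.061) and in a fit to WT alone (0.15), and that in ire1b without its first DMSO library (0.066). The responses of the genotypes did not differ by the interaction tests, whose log2 differences ran from -0.05 to 0.23 (adjusted p 0.74 to 0.98). From highest to lowest the group means were ire1a1b, ire1b and WT with TM (61.6, 60.4 and 55.4 CPM), then ire1b, WT and ire1a1b with DMSO (44.2, 39 and 38.2 CPM), and the step between WT with TM and ire1b with DMSO was the only one between neighbours without overlap.

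The 8 root markers all fell with TM in all 3 genotypes by the same test, and beside every TM result here their summed level went from 82 to 42.9 CPM in WT, from 87.9 to 31.8 in ire1b and from 91.6 to 34.3 in ire1a1b. Of the 7 green markers edgeR and DESeq2 called 0 with TM in each genotype, with 0 at an unadjusted p under 0.05. The part of tissue make-up in the TM results was not tested.

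PAD4 (chromosome 3, 19431095 to 19434450, plus strand) encodes the partner with which EDS1 forms a signalling complex. In ire1a1b its levels were 19.8, 23.5 and 22.4 CPM with DMSO and 39.7, 38.8 and 41.5 CPM with TM. In WT they were 17.7, 21.1 and 21.4 CPM with DMSO and 20.9, 16.4 and 19.2 CPM with TM. In ire1b they were 21.1, 20 and 21.9 CPM, and 21.7, 21.2 and 27.9 CPM with TM. The 3 TM libraries of ire1a1b were the highest of all 18, and the other groups overlapped their neighbours. PAD4 rose 1.83-fold in ire1a1b (log2 0.87 ± 0.11, adjusted p = 4.8e-05) and was also called with each library left out in turn (highest adjusted p 0.00041). Its differences with TM were not called in WT (log2 -0.09 ± 0.11, adjusted p = 0.7) or ire1b (log2 0.17 ± 0.11, adjusted p = 0.35). The response in ire1a1b exceeded that in WT by log2 0.96 ± 0.16 (interaction, adjusted p = 0.0014), and by 0.87 to 1.04 with each library left out in turn. Against ire1b the response was larger by log2 0.7 ± 0.16, with an adjusted p of 0.061 that crossed the threshold with DESeq2 (0.0074) and without the first WT DMSO, the second WT TM or the third ire1b TM library (0.042, 0.047 and 0.012). With TM, PAD4 was 2.13-fold higher in ire1a1b than in WT (log2 1.09 ± 0.11, adjusted p = 5.7e-06) and 1.7-fold higher than in ire1b (log2 0.76 ± 0.11, adjusted p = 0.00072). Between ire1b and WT with TM the difference was log2 0.33 ± 0.11 (adjusted p = 0.083, 0.035 with a replicate block).

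ICS1 (chromosome 1, 28070295 to 28074177, plus strand), the synthase of the salicylate precursor, went down in the libraries labelled ire1b. Its levels there were 17.8, 17.1 and 34.7 CPM with DMSO and 10.2, 10.5 and 11.2 CPM with TM. In WT they were 12, 21.4 and 22.7 CPM, and 19.7, 14.5 and 18.1 CPM with TM. In ire1a1b they were 15.8, 20 and 27.3 CPM, and 19.8, 16.3 and 20.1 CPM with TM. The DMSO libraries spread widely within each genotype, whereas the 3 TM libraries of ire1b lay close together and below all others. ICS1 fell 2.17-fold in ire1b (log2 -1.12 ± 0.29, adjusted p = 0.01). Without the third DMSO library, the one at 34.7 CPM, the fall was log2 -0.72 with an adjusted p of 0.066. The differences in WT (log2 -0.1 ± 0.28, adjusted p = 0.89) and ire1a1b (log2 -0.16 ± 0.28, adjusted p = 0.81) were not called. The response in ire1b minus that in WT was log2 -1.02 ± 0.4, the response in ire1a1b minus that in ire1b was 0.96 ± 0.4, and neither difference passed (adjusted p = 0.23 and 0.59). The group means ran from 23.2 CPM in ire1b, 21 in ire1a1b and 18.7 in WT with DMSO through 18.7 in ire1a1b and 17.4 in WT to 10.6 in ire1b with TM, and of the steps between neighbours in that order, the last was without overlap.

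NPR1 (chromosome 1, 23852748 to 23855658, minus strand) is the salicylate receptor and transcriptional coactivator. In WT it stood at 44.9, 52 and 53.5 CPM with DMSO and at 45, 48.4 and 46.4 CPM with TM. In ire1b it stood at 51.8, 55.5 and 60.5 CPM, and at 47.8, 47.4 and 50.1 CPM with TM. In ire1a1b it stood at 42.4, 54.3 and 51.2 CPM, and at 51, 58.7 and 58.1 CPM with TM. The TM libraries were below the DMSO libraries without overlap in ire1b, and the groups overlapped in WT and ire1a1b. No difference of NPR1 was called, with log2 -0.1 ± 0.09 in WT, -0.21 ± 0.09 in ire1b (adjusted p = 0.13) and 0.18 ± 0.09 in ire1a1b (adjusted p = 0.23). With a replicate block the changes in ire1b (log2 -0.2, adjusted p = 0.02) and ire1a1b (log2 0.19, adjusted p = 0.039) passed. So did the interaction of ire1a1b with WT (log2 0.29, adjusted p = 0.045, 0.28 without the block) and, with TM, ire1a1b against WT (log2 0.26, adjusted p = 0.0054, 0.069 without it). The TM difference in ire1b also passed in a fit to ire1b alone (adjusted p = 0.029). Group means lay between 46.6 and 55.9 CPM, and neighbours in their order overlapped throughout. NPR1 overlaps a pseudogene (AT1G64270, 38 bases) and a long noncoding RNA (AT1G08667, 214 bases) on the opposite strand, neither of which has a row of its own, and reads from them cannot be told apart from those of NPR1 where the counting used no strand.

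WRKY70 (chromosome 3, 20908711 to 20910623, minus strand) has TGA cores in its promoter above, the nearer of which overlaps its W-box core. It stood at 5.42, 4.47 and 7.28 CPM in ire1a1b with DMSO and at 11.3, 10.9 and 22.3 CPM with TM. In WT it stood at 5.63, 3.28 and 5.8 CPM, and at 5.89, 2.85 and 3.67 CPM with TM. In ire1b it stood at 6.23, 2.23 and 2.7 CPM, and at 6.44, 4.2 and 5.81 CPM with TM. As for PAD4, the 3 TM libraries of ire1a1b were the highest of all 18, the third far above the others, while the other 5 groups overlapped. WRKY70 rose 2.61-fold in ire1a1b (log2 1.38 ± 0.38, adjusted p = 0.022). The rise was log2 0.96 with an adjusted p of 0.13 without the third TM library, and the call was also lost without the first or the second DMSO library (0.055 and 0.089) and in a fit to ire1a1b alone (0.057). The differences in WT (log2 -0.25 ± 0.41, adjusted p = 0.79) and ire1b (log2 0.56 ± 0.41, adjusted p = 0.39) were not called. With TM, WRKY70 was 3.59-fold higher in ire1a1b than in WT (log2 1.84 ± 0.39, adjusted p = 0.0039), also with each library left out in turn. Against ire1b with TM the difference was log2 1.43 ± 0.38 (adjusted p = 0.065), and it passed with a replicate block (0.0086), with DESeq2 (0.01) and without the first ire1b DMSO library (0.029). The interaction of ire1a1b with WT was log2 1.63 ± 0.55 (adjusted p = 0.11), 1.61 and past the threshold with the block (0.025).

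**Figure D2:**
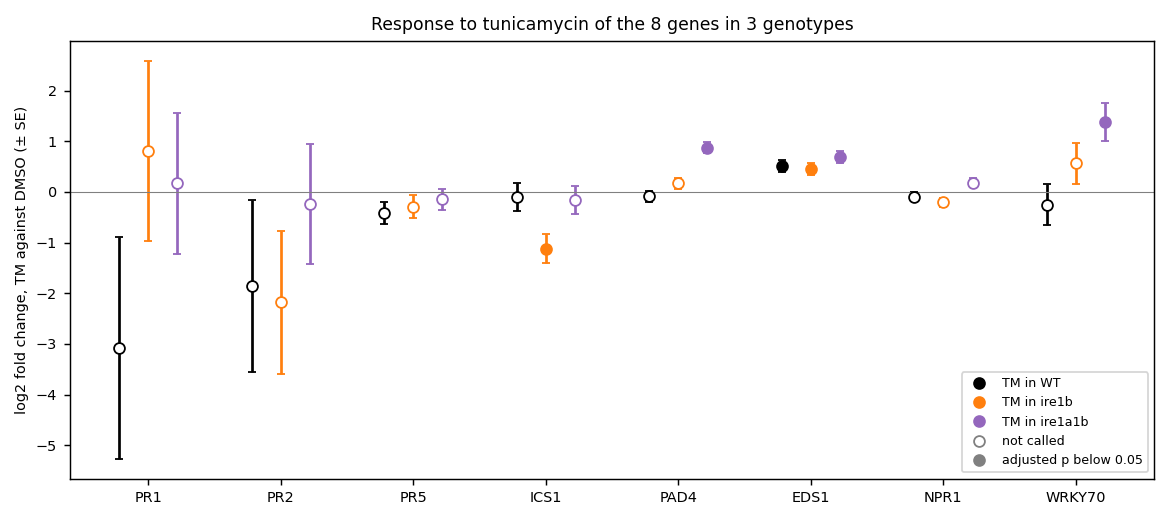
Log2 fold change of TM against DMSO (points) with its standard error (bars) for each of the 8 genes in WT (black), ire1b (orange) and ire1a1b (purple), where filled points passed an adjusted p of 0.05. Filled points are EDS1 in all 3 genotypes, ICS1 in ire1b and PAD4 and WRKY70 in ire1a1b, and the longest bars belong to PR1 and PR2.

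PR1 (chromosome 2, 6241640 to 6242541, minus strand) encodes a small secreted protein and is the usual marker of salicylate signalling. Its counts in WT were 4, 0 and 108 with DMSO and 0, 0 and 13 with TM. In ire1b they were 41, 2 and 5 with DMSO and 78, 1 and 16 with TM. In ire1a1b they were 5, 57 and 127 with DMSO and 3, 17 and 204 with TM. Each group mixed libraries at or near the floor with libraries well above it: PR1 had 0 counts in 3 libraries, under 10 in 9 and at least 1 CPM in 6. The biological coefficient of variation, which is the spread between replicates relative to the mean and without the counting error, as estimated by edgeR, was 1.57 for PR1. No other of the 20615 tested genes had a higher one, and the median was 0.102. The highest library of WT, ire1b and ire1a1b held 5.59, 3.37 and 9.89 CPM.

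With such a spread no difference of PR1 was called. The log2 change with TM was -3.08 ± 2.19 in WT (adjusted p = 0.44), 0.81 ± 1.78 in ire1b (adjusted p = 0.81) and 0.17 ± 1.39 in ire1a1b (adjusted p = 0.96). In WT it was 1.23 without the third DMSO library, and in ire1a1b -2.71 without the third TM library. With TM, PR1 averaged 3.66 ± 5.42 CPM in ire1a1b (SD, n = 3) and 0.221 ± 0.383 in WT, a log2 difference of 4.07 ± 2.04 (adjusted p = 0.21) that was 1.2 without the third ire1a1b library.

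PR2 (chromosome 3, 21188397 to 21189967, minus strand) encodes a beta-1,3-glucanase that attacks cell walls, and it followed the same libraries. Its counts in WT were 9, 9 and 79 with DMSO and 4, 2 and 20 with TM. In ire1b they were 175, 18 and 9, and 41, 5 and 3 with TM. In ire1a1b they were 27, 34 and 167, and 13, 24 and 168 with TM. Again 1 library stood far above the others in 5 of the groups, and in WT with TM the third was the highest at a low level. The coefficient of variation was 1.07, and 7 tested genes had a higher one. No difference was called, the log2 changes with TM being -1.86 ± 1.69 in WT (adjusted p = 0.57), -2.18 ± 1.41 in ire1b (adjusted p = 0.32) and -0.24 ± 1.18 in ire1a1b (adjusted p = 0.94). Without its first DMSO library, at 9.23 CPM, the change in ire1b was 0.11.

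The 6 libraries highest in PR1 were also the 6 highest in PR2. They were the third libraries of WT with DMSO, ire1a1b with DMSO and ire1a1b with TM, the first libraries of ire1b with DMSO and with TM, and the second of ire1a1b with DMSO. PCC1 and LURP1, which are known to respond to salicylate and to pathogens, each shared 5 of their 6 highest libraries with PR1, and were singled out after their values were seen. Their levels were lower still, with PCC1 at 1.75 and LURP1 at 2.13 CPM in the third ire1a1b TM library, and PCC1 was under 10 counts in 13 libraries. Both treatments and all 3 genotypes were among the 6. In WT and ire1a1b the third replicate was the highest of its group for PR1 and PR2 with DMSO and with TM alike, and in ire1b it was the first. What set these libraries apart was not tested. EDS1 had 1 of these 6 libraries among its own 6 highest, PR5, ICS1 and WRKY70 had 4 and PAD4 and NPR1 had 3.

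**Figure D3:**
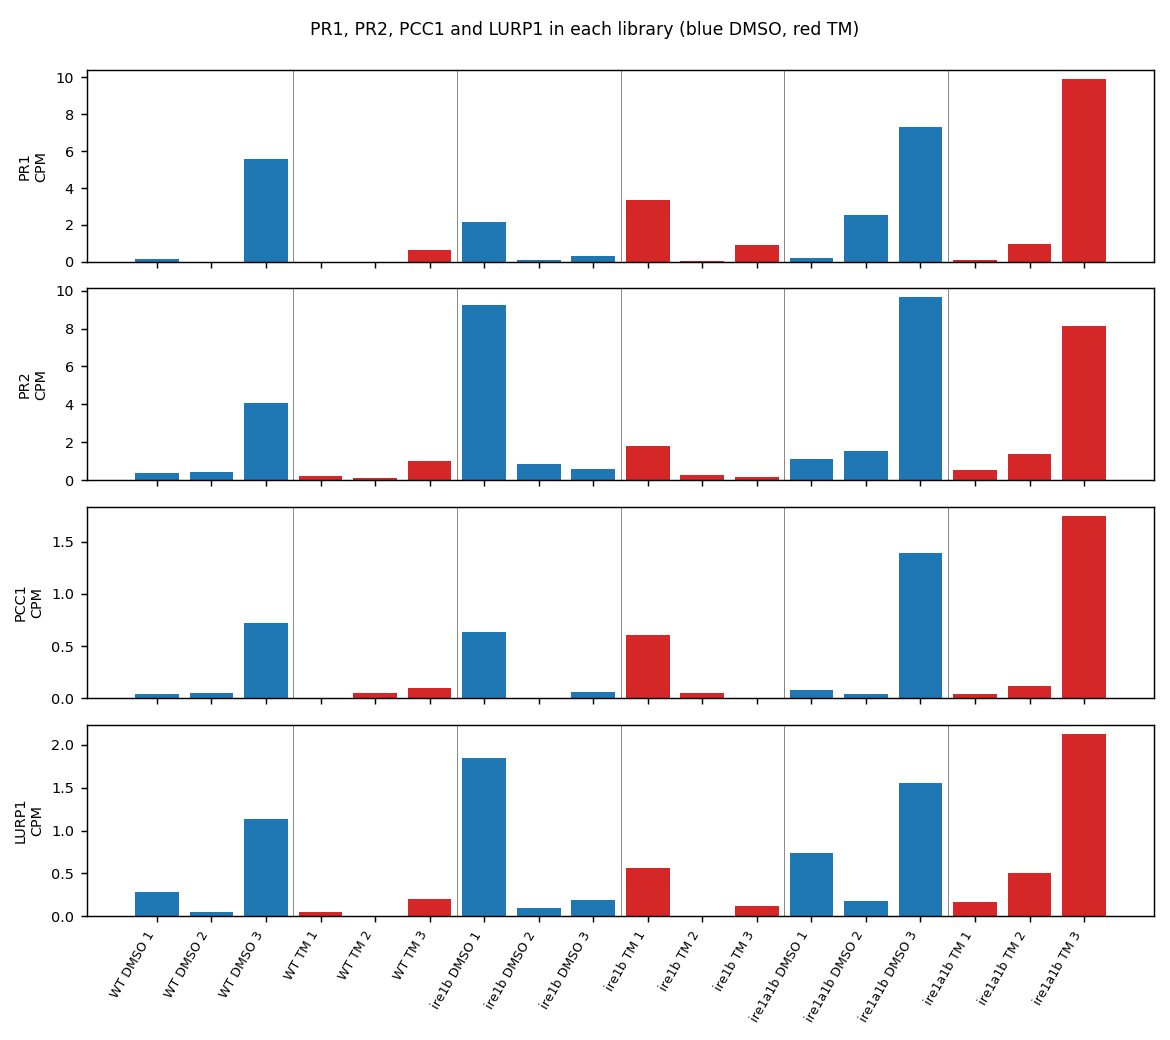
Level (CPM, TMM-scaled, each axis from 0) of PR1, PR2, PCC1 and LURP1 in each of the 18 libraries, with blue bars for DMSO, red bars for TM and grey lines between groups. The 6 libraries highest in PR1 are also the 6 highest in PR2, among them the third ire1a1b TM library, with 9.89 CPM of PR1 and 8.15 CPM of PR2.

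PR5 (chromosome 1, 28177670 to 28179022, plus strand), a thaumatin-like protein gene, varied less between replicates than PR1 and PR2. Its biological coefficient of variation was 0.147, above the median of 0.102, and it was uneven in ire1b with DMSO. In WT it stood at 3.12, 3.15 and 3.42 CPM with DMSO and at 2.6, 2.12 and 2.5 CPM with TM. In ire1b it stood at 5.38, 3.18 and 2.51 CPM, and at 2.85, 3.75 and 2.5 CPM with TM. In ire1a1b it stood at 4.22, 3.98 and 4.22 CPM, and at 3.72, 3.59 and 3.88 CPM with TM. The TM libraries were below the DMSO libraries without overlap in WT and ire1a1b, and the groups overlapped in ire1b. The changes with TM were not called (log2 -0.42 ± 0.22 in WT, -0.29 ± 0.22 in ire1b and -0.15 ± 0.21 in ire1a1b, adjusted p 0.26 to 0.74). With TM, PR5 was 1.55-fold higher in ire1a1b than in WT without overlap (log2 0.63 ± 0.22, adjusted p = 0.061). This difference passed with a replicate block (0.041), with DESeq2 (0.042), in a fit to these groups alone (0.037) and without the first or the third ire1b DMSO library (0.0086 and 0.03). Group means went from 4.14 CPM in ire1a1b with DMSO to 2.41 CPM in WT with TM, and of the steps between neighbours the first, to ire1a1b with TM (3.73 CPM), was without overlap.

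In WT the only 1 of the 8 called with TM was EDS1, which rose, beside 6.13% of all tested genes called higher and 5.77% called lower. In ire1b 1 rose and 1 fell, beside 10.9% and 11.6% of all genes. In ire1a1b 3 rose (EDS1, PAD4 and WRKY70) and 0 fell, beside 8.27% and 6.59% of all genes. The median log2 change of the 8 genes was -0.18 in WT, -0.02 in ire1b and 0.18 in ire1a1b, and that of all tested genes was -0.02, -0.01 and -0.02. The TM libraries were without overlap above the DMSO libraries for 1 gene in WT and 1 in ire1b (13.2% and 22.9% of all genes) and for 3 in ire1a1b (14.2%). They were without overlap below them for 1 gene in WT (11.4%), 2 in ire1b (23.2%) and 1 in ire1a1b (12.7%).

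The differences between TM responses share the WT, ire1b or ire1a1b libraries with each other. Between ire1a1b and WT 1 of the 8 genes (PAD4) was called higher, beside 3.7% of all genes, and 3 were called higher with a replicate block (PAD4, NPR1 and WRKY70, beside 6.96%). Between ire1b and WT 0 were called by edgeR and by DESeq2, 1 had an unadjusted p under 0.05, and 4.15% of all genes were called. Between ire1a1b and ire1b edgeR called 0 and DESeq2 called PAD4, 3 had an unadjusted p under 0.05, and 0.776% of all genes were called.

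With DMSO the genotypes did not separate on these genes. edgeR and DESeq2 called 0 of the 8 in any of the 3 comparisons, 0 had an unadjusted p under 0.05, and the calls over all genes came to 0.0291% (ire1b against WT), 0.131% (ire1a1b against WT) and 0.16% (ire1a1b against ire1b). PR5 was without overlap higher in ire1a1b than in WT (3.98 to 4.22 CPM against 3.12 to 3.42), beside 2.37% of all genes. The largest log2 difference was that of PR1 between ire1a1b and ire1b, 1.9 ± 1.66 (adjusted p = 0.93).

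With TM the libraries labelled ire1a1b were higher in 2 of the 8 genes than WT (PAD4 and WRKY70, beside 8.99% of all genes) and in 1 than ire1b (PAD4, beside 1.21%). A replicate block called 4 higher against WT, adding PR5 and NPR1 (beside 13.5% of all genes), and 2 against ire1b, adding WRKY70 (beside 3.05%). Groups were without overlap, higher in ire1a1b, for 4 genes against WT (PR5, PAD4, NPR1 and WRKY70, beside 14.9% of all genes) and for 4 against ire1b (ICS1, PAD4, NPR1 and WRKY70, beside 10.5%). Between ire1b and WT edgeR and DESeq2 called 0, 2 had an unadjusted p under 0.05, and 11.3% of all genes were called. With a replicate block PAD4 was called higher in ire1b than in WT (adjusted p = 0.035), beside 11.4% of all genes called higher.

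For the wider pathway and relatives of the PR genes, 75 other genes were listed in 9 lists by role, of which 69 passed the filter. The last list held the relatives of the PR genes, among them PR3 and PR4, known as ethylene and jasmonate outputs rather than salicylate ones. Of the falls with TM counted next, that list gave 3 in WT, 2 in ire1b and 1 in ire1a1b. In WT 2 of the 69 rose with TM (2.9%, beside 6.13% of all tested genes) and 8 fell (11.6% beside 5.77%). In ire1b 10 rose (14.5% beside 10.9%) and 14 fell (20.3% beside 11.6%). In ire1a1b 13 rose (18.8% beside 8.27%) and 6 fell (8.7% beside 6.59%, a share near the background). The counts within each list below are to be read against the same shares of all genes, and a single call in a list is near them. They come from fits without a replicate block, and list counts with the block are not given. The median log2 changes of the 69 were -0.13, -0.18 and 0.18 in WT, ire1b and ire1a1b. Between the responses of ire1a1b and WT 7 were higher (beside 3.7% of all genes) and 1 lower (beside 2.43%). With TM 19 were higher in ire1a1b than in WT (27.5% beside 8.99%) and 3 lower (4.35% beside 7.5%). The relatives of the PR genes gave 2 of the 7 and 2 of the 19. With DMSO edgeR and DESeq2 called 0 in each comparison of genotypes, where 3, 5 and 4 of the 69 had an unadjusted p under 0.05.

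Of 8 genes of salicylate synthesis and export 2 fell in WT (beside 5.77% of all genes), 4 fell and 1 rose in ire1b (beside 11.6% and 10.9%), and 1 fell in ire1a1b (beside 6.59%). PAL4 and PAL2, which encode enzymes of the alternative phenylalanine route, fell in WT (log2 -0.57 and -0.65, adjusted p = 0.0033 and 0.032) and in ire1b (-0.71 and -1.17, adjusted p = 0.00027 and 0.00028). ICS2, the second isochorismate synthase, fell in ire1b (log2 -0.62, adjusted p = 0.0086) and in ire1a1b (-0.74, adjusted p = 0.004). Its response was lower than in WT in both (-1.06 and -1.19, adjusted p = 0.0088 and 0.0031). With TM the salicylate exporter gene EDS5 was higher in ire1a1b than in WT (log2 0.49, adjusted p = 0.022) and than in ire1b (0.57, adjusted p = 0.032).

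Of 7 transcriptional regulators of ICS1 2 rose and 1 fell in WT, 2 rose and 1 fell in ire1b, and 3 rose in ire1a1b. Those that rose were CAMTA1 and CAMTA2 in WT and ire1b, and SARD1, CAMTA2 and CAMTA3 in ire1a1b. The count of rises does not tell whether ICS1 was activated. SARD1, an activator of ICS1, went from 3.01 to 8.45 CPM in ire1a1b (log2 1.49 ± 0.23, adjusted p = 0.00033), and its response exceeded that in WT by 1.77 (adjusted p = 0.0052). CAMTA2, a calmodulin-binding factor, rose in WT, ire1b and ire1a1b (log2 0.37, 0.32 and 0.22, adjusted p = 0.00092, 0.0014 and 0.026). WRKY28, another activator of ICS1, fell in WT and ire1b (log2 -0.7 and -0.99, adjusted p = 0.044 and 0.0031).

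Of 8 partners of EDS1 and helper receptors edgeR and DESeq2 called 0 in WT, with 0 at an unadjusted p under 0.05, while 1 rose and 1 fell in ire1b, and 3 rose in ire1a1b. SAG101, the other partner of EDS1 in immune signalling, went from 25 to 55.6 CPM in ire1b (log2 1.15, adjusted p = 8.9e-05) and from 22.9 to 62.2 CPM in ire1a1b (log2 1.44, adjusted p = 1.3e-05). In WT SAG101 stood at 22.6 and 26.2 CPM, and both responses exceeded that of WT (by 0.94 and 1.22, adjusted p = 0.031 and 0.0039). The helper receptor genes ADR1 and ADR1-L2, which act downstream of EDS1 and PAD4, rose in ire1a1b (log2 0.42 and 0.35, adjusted p = 0.00019 and 0.0011). EDS1B, the close relative of EDS1, fell in ire1b (log2 -0.87, adjusted p = 0.011), opposite to EDS1 itself.

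Of 14 tested relatives and cofactors of NPR1 edgeR and DESeq2 called 0 in WT, with 1 at an unadjusted p under 0.05, and 3 rose in ire1b and 3 in ire1a1b. TGA3, a transcription factor that binds NPR1, rose in ire1b and ire1a1b (log2 0.83 and 0.77, adjusted p = 0.002 and 0.0054), and TGA6 in both (0.27 and 0.29, adjusted p = 0.026 and 0.025). NPR3, another salicylate receptor, rose in ire1a1b (log2 0.55, adjusted p = 0.0079). Of 8 tested defence WRKY factors both tools called 0 in WT, with 2 at an unadjusted p under 0.05, while 1 rose and 4 fell in ire1b, and 1 rose and 2 fell in ire1a1b. WRKY46 rose in ire1b and ire1a1b (log2 0.83 and 0.85, adjusted p = 0.0015 and 0.0013), and WRKY60 fell in both (-1.66 and -1.4, adjusted p = 4.8e-05 and 0.00034). Among the other falls, WRKY38 ended at 0.0455 CPM in ire1b and 0.202 CPM in ire1a1b with TM, and WRKY58 at 0.151 CPM in ire1b. These levels were near or below the floor.

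Of 6 tested genes of salicylate modification DMR6, a hydroxylase that inactivates salicylate, fell in WT and ire1b (log2 -0.59 and -0.89, adjusted p = 0.0016 and 1.9e-05). MES1, an esterase that frees salicylate from its methyl ester, rose in ire1b and ire1a1b (log2 0.69 and 1.13, adjusted p = 0.027 and 0.0014), and MES9 fell in ire1a1b (-0.97, adjusted p = 0.011). The 4 genes of the N-hydroxypipecolate pathway, which makes the partner signal of salicylate in systemic immunity, gave 0 calls with TM by edgeR in WT, ire1b and ire1a1b, while DESeq2 called 1 in ire1a1b (ALD1), the only 1 with an unadjusted p under 0.05 by edgeR in these comparisons. In ire1a1b ALD1 stood at 0.455, 0.576 and 0.982 CPM with DMSO and at 0.898, 0.841 and 6.21 CPM with TM, the third TM library far above the others. Of 10 salicylate-responsive genes 1 fell in WT, 1 rose and 1 fell in ire1b, and 2 rose and 1 fell in ire1a1b. ACD6, a membrane protein gene of salicylate feedback, fell in WT, ire1b and ire1a1b (log2 -1.26, -2.5 and -1.12, adjusted p = 0.046, 0.00034 and 0.046). PNP-A, a secreted peptide gene, rose in ire1b and ire1a1b (log2 1.75 and 1.48, adjusted p = 0.014 and 0.033), and the glutaredoxin gene GRXC9 in ire1a1b (1.13, adjusted p = 0.025). In ire1a1b with TM the third library was also the highest for PNP-A (2.86, 3.2 and 6.84 CPM) and GRXC9 (1.92, 2.36 and 4.66 CPM).

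Among the relatives of the PR genes 4 of 7 were tested, and 3 fell in WT, 2 in ire1b and 1 in ire1a1b. PR4, a hevein-like gene known as an ethylene and jasmonate output rather than a salicylate one, went from 77.4 to 15.9 CPM in WT (log2 -2.28, adjusted p = 2.5e-07). In ire1b it went from 79 to 27.4 CPM (log2 -1.52, adjusted p = 8.6e-06) and in ire1a1b from 104 to 63.2 CPM (log2 -0.71, adjusted p = 0.0082). PR3, a chitinase gene of the same kind, fell in WT and ire1b (log2 -2.16 and -1.92, adjusted p = 1.5e-05 and 1.8e-05). The responses of PR4 and PR3 in ire1a1b were above those in WT by log2 1.57 and 1.49 (adjusted p = 0.00073 and 0.0089).

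**Figure D4:**
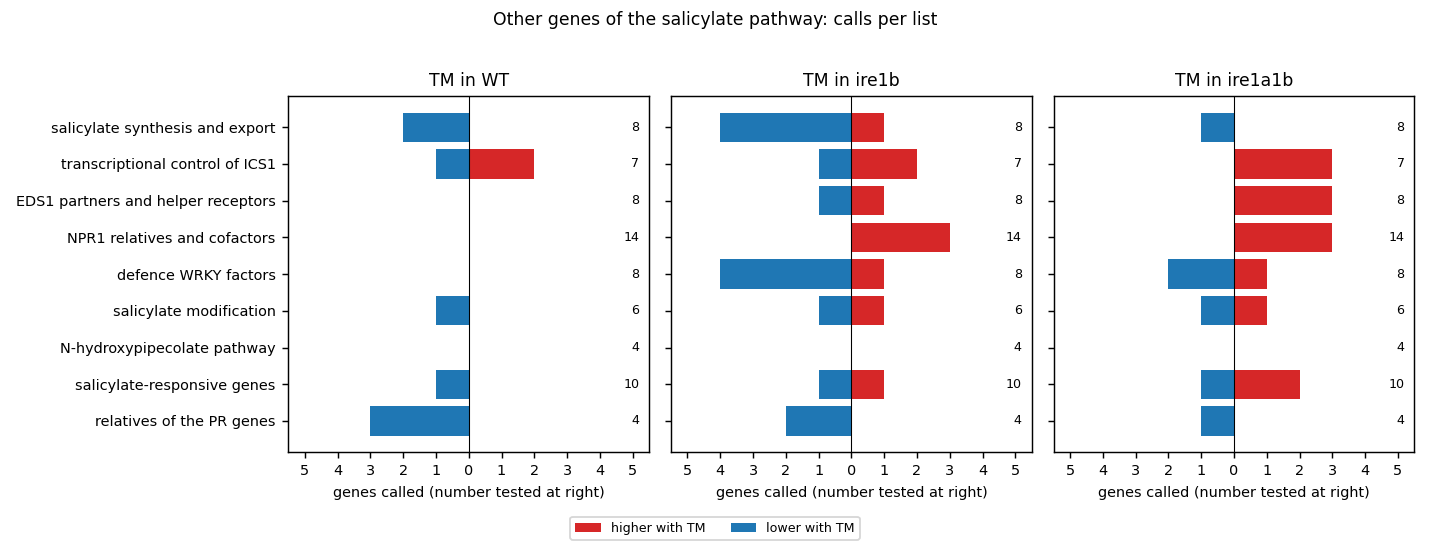
Number of genes called higher (red, to the right) or lower (blue, to the left) with TM in WT, ire1b and ire1a1b for the 9 lists of other genes. The number tested is at the right of each row. The last list, relatives of the PR genes, includes PR3 and PR4, which are not salicylate outputs. In WT 2 of the 69 tested genes rose and 8 fell (beside 6.13% and 5.77% of all genes), and in ire1a1b 13 rose and 6 fell (beside 8.27% and 6.59%).

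For each of the 8 genes, the genes with the most similar pattern over the 18 libraries were sought among 17880 genes outside the 8. Their log2 CPM averaged 1 or more, so that low genes such as PCC1 and LURP1 were not searched. None of the 8, PR1 and PR2 included, could be named as nearest to another. Likeness was the root mean square difference of log2 CPM after each gene was centred on its own mean. The nearest to WRKY70 was SARD1 (0.29, beside a spread of 0.78 for WRKY70 itself), then AT5G09290 (0.48) and LOX1 (0.5), a lipoxygenase gene. The nearest to PAD4 was SGT1A (0.13, spread 0.38), a cochaperone gene of immune receptors, then AT3G25510 (0.16) and GSTU5 (0.17). For EDS1 they were UGD2 (0.11, spread 0.32), AT1G71360 and VPS2.1 (both 0.12).

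For ICS1 they were AT1G72920 (0.22, spread 0.45), ASB1, which serves tryptophan synthesis from chorismate, and GSTF2 (both 0.24). For NPR1 they were LZF1 (0.04, spread 0.14), TAAC and SIZ1 (both 0.07). PR1 and PR2 had the same nearest gene, AT3G22235 (1.21 and 0.77, beside spreads of 2.21 and 1.73), and PR1 was then nearest to WAK3 (1.79) and ECS1 (1.8), PR2 to VSP1 (1.29) and AT2G25510 (1.34). For PR5 they were RLP33, AT1G23530 (both 0.2, spread 0.32) and TGG2 (0.22). The points share library preparation and depth, and the distances describe these 18 libraries.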

How the data were processed

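PolyA RNA of 18 seedling libraries was sequenced as paired-end 250 nt reads, per the labels. Per the submitters' processing notes the authors used STAR 2.4.0, HTSeq 0.6.0 and the TAIR10 build. The counts per gene were used as deposited by the authors, without scaling. The sources used here name no counting mode, strand setting or annotation release (not given in the sources used here). Of 27416 identifiers 26719 matched TAIR10.1. Left out were the HTSeq entries that name no gene: reads in no feature (1.202% to 1.419%), in several features (1.094% to 1.231%) or with several alignments (3.331% to 3.713%). The upstream window of PR1 is not reported here. No 100-base exon window of the 8 genes occurred again in the nuclear genome.

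Replicates were numbered by sample title, since the replicate tag disagreed with it. Nothing said that replicates were separate cultures, so the spread behind each p-value may be technical only. The counts were filtered (filterByExpr, 20615 genes kept), scaled by TMM (0.9473 to 1.0661) and tested in edgeR 4.0.16 (R 4.3.3) by quasi-likelihood with robust moderation, 1 mean per group over all 18 libraries. In each of 12 comparisons the Benjamini-Hochberg adjustment covered every gene tested, and calls were made below 0.05. The script was tested on simulated data. All tests are two-sided.

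Alternatives were RLE scaling, DESeq2 1.42.0, no filter, at least 1 CPM in 3 libraries, the compared groups alone, a replicate block, each library left out in turn, the replicate 1 libraries of WT and ire1a1b left out, and replicate 1 of every group left out. Deviations of libraries with equal replicate number correlated at 0.12 to 0.84 in 8 comparisons, so the numbers were taken to pair samples there and the block is given beside a result it changed. With TM the correlations of ire1b were low, 0.12 to 0.23 with WT and 0.16 to 0.21 with ire1a1b. Replicate 1 of ire1b also did not lie apart on the second principal component. Whether the numbers pair ire1b with the other genotypes is not settled, and block results between them carry this limit. In the other 4 comparisons (the responses of ire1b against WT and ire1a1b, and both DMSO comparisons with ire1b) the lowest correlation was 0.01 to 0.07. Members, gene lists and tests were chosen with earlier results of these data known. The 8 genes are named in every comparison, up to 4 called genes per list with the smallest p, and 3 genes of most similar pattern per member.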

Additional observations from a re-analysis of the deposited data

Results flagged for a closer look

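The response of PAD4 to TM differed between genotypes by a test of the difference itself. It was larger in the libraries labelled ire1a1b than in WT by log2 0.96 ± 0.16 (edgeR quasi-likelihood interaction, adjusted p = 0.0014), from 21.9 to 40 CPM against 20.1 and 18.8 CPM. The same difference was called for WRKY70 and NPR1 only with a replicate block (adjusted p = 0.025 and 0.045) or, for WRKY70, with DESeq2. For PAD4 all 3 TM libraries of ire1a1b were above all 3 of its DMSO libraries.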

How the results depend on the processing

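Over 26 alternatives, 2496 log2 values of the 8 genes were recomputed: 2452 kept direction and side of the threshold, 9 lost a call, 35 gained 1 and 0 called values reversed, while 77 uncalled values changed sign. The number of the 8 genes called moved as follows, to be read beside the moves over all genes given last. For TM in WT the 1 call became 0 in a fit to WT alone. In ire1b the 2 calls with TM became 3 with the replicate block, in a fit to ire1b alone and without replicate 1 of WT and ire1a1b or of every group, and in ire1a1b the 3 became 4 with the block and 2 in a fit to ire1a1b alone. For the interaction of ire1a1b with WT, 1 became 2 with DESeq2 and 3 with the replicate block, and for that with ire1b, 0 became 1 with DESeq2 and 2 with the block (PAD4 at adjusted p = 0.014 and NPR1 at 0.034), where the numbers did not pair the samples. With TM, ire1b against WT went from 0 to 1, but not for the same gene throughout. PAD4 was called higher with the replicate block and without replicate 1 of WT and ire1a1b or of every group. In the compared groups alone ICS1 was called lower instead (log2 -0.72, adjusted p = 0.0086). Likewise ire1a1b against WT went from 2 to 4 with the block and without replicate 1 of every group, adding PR5 and NPR1. Between ire1a1b and ire1b with TM the count went from 1 to 2, again by different genes. WRKY70 was added with DESeq2 and the block, ICS1 in the groups alone, and NPR1 without replicate 1 of WT and ire1a1b. With each library left out in turn the counts in ire1a1b with TM ran from 2 to 3 against its own DMSO libraries, 2 to 3 against WT and 1 to 2 against ire1b. The TM counts ran from 1 to 2 within ire1b and from 0 to 1 within WT, and those of the ire1a1b and ire1b responses compared from 0 to 1. Over all genes the replicate block raised the calls for TM in WT from 2453 to 4142, and a fit to WT alone lowered them to 841. Elsewhere calls over all genes moved too, given here without the fits that left out 1 library. With TM they ran from 4497 to 6853 in ire1b (main fit 4639) and from 1574 to 4844 in ire1a1b (3064). For the interactions of ire1a1b they were 846 to 2341 with WT (1262) and 142 to 316 with ire1b (160). Between genotypes with TM they were 2180 to 4233 for ire1b against WT (2330). For ire1a1b they were 2305 to 5230 against WT (3400) and 484 to 1187 against ire1b (564).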
